A study of Mus musculus with 24 samples.

Results

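Neuronal precursors carrying a Neurog1-GFP reporter were compared with globose basal cells of the same adult olfactory mucosa, the earliest step of the neuronal lineage for which the study has sorted cells. The comparison takes 6 of the 24 arrays of the series, 3 of Neurog1-Ctrl and 3 of Sox2GBC, chosen by their titles, and all 11870 tested genes are its members. Neurog1-Ctrl cells were GFP-positive cells from heterozygotes bred from Neurog1-GFP mice and FVB/NJ. Sox2GBC cells came from heterozygotes bred from ∆Sox2-GFP mice and FVB/NJ, and were low in GFP and negative for the surface label Ecad/CD54. Both sorts took cells negative for the viability dye PI with low scatter, from unlesioned adults 8 to 12 weeks old, and each replicate pooled cells of several mice. The mouse line differs between the sides, so that what belongs to the line and what to the cell stage cannot be told apart. The sources used here describe the reporters only by the names of the lines. The labels number the replicates but tie them to no animal. The p-values rest on the spread between pooled samples within groups, estimated over all 21 arrays of the mucosa and not over these 6 alone.

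The olfactory epithelium replaces its sensory neurons throughout life. Globose basal cells divide and give rise to precursors that pass through a brief stage of proneural factor expression, of which Neurog1 is one, before they leave the cell cycle and grow an axon and sensory cilia. Notch signalling, read out through repressors such as Hes1, holds progenitors back from neuronal fate in many tissues, and in this epithelium the glia-like sustentacular cells keep Notch targets high. Sensory neurons each express a chosen odorant receptor and signal through a cyclic AMP cascade in their cilia.

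Expression was read on Illumina bead arrays as probe brightness. Mean signal was 722, 623 and 664 intensity units on Neurog1-Ctrl replicates 1, 2 and 3, and 514, 534 and 224 on those of Sox2GBC. Sox2GBC replicate 3 was the dimmest of the 6, and it received an array weight of 0.522 in the fit that estimates weights. The SD of its negative controls, inferred from the detection p-values, was 7.28 units against 15.1 to 20.8 on the other 5. Between 33.9% and 36.8% of probes were detected per array. Across genes, which are not independent replicates, arrays correlated at 0.988 to 0.991 within Neurog1-Ctrl, at 0.972 to 0.985 within Sox2GBC and at 0.935 to 0.957 between the groups. Levels below are log2 intensities after quantile normalization, listed for replicates 1, 2 and 3 in that order. Differences are Neurog1-Ctrl minus Sox2GBC, 3 arrays a group, with their standard error. That error too uses the spread estimated over all 21 arrays of the mucosa. Adjusted p are Benjamini-Hochberg values of limma over all tested genes, and a gene is called where it is under 0.05.

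Of the 11870 genes, 2019 (17.0%) were called, 947 (7.98%) higher and 1072 (9.03%) lower in Neurog1-Ctrl, and 1333 (11.2%) were called and differed at least 2-fold. For 5385 genes (45.4%) the arrays of the groups did not overlap, among them 1994 of those called. The median difference of all genes was -0.00. Among the tested genes, 1117 were detected on no array of either group and had passed the filter on arrays of the other sorts. Leaving out an array of Neurog1-Ctrl lowered the number of calls, to 1165 for replicate 1 and 1192 for replicate 3. The split between higher and lower calls depended on scaling: 46.9% of calls were higher, against 35.5% with cyclic loess, 37.3% with scaling by the median of kept probes and 77.0% with scaling by the median of all probes, which moved the median of all genes to 0.38. Without Sox2GBC replicate 3 the share was 36.3%. All 2019 genes kept their sign under each of these settings.

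**Figure D1:**
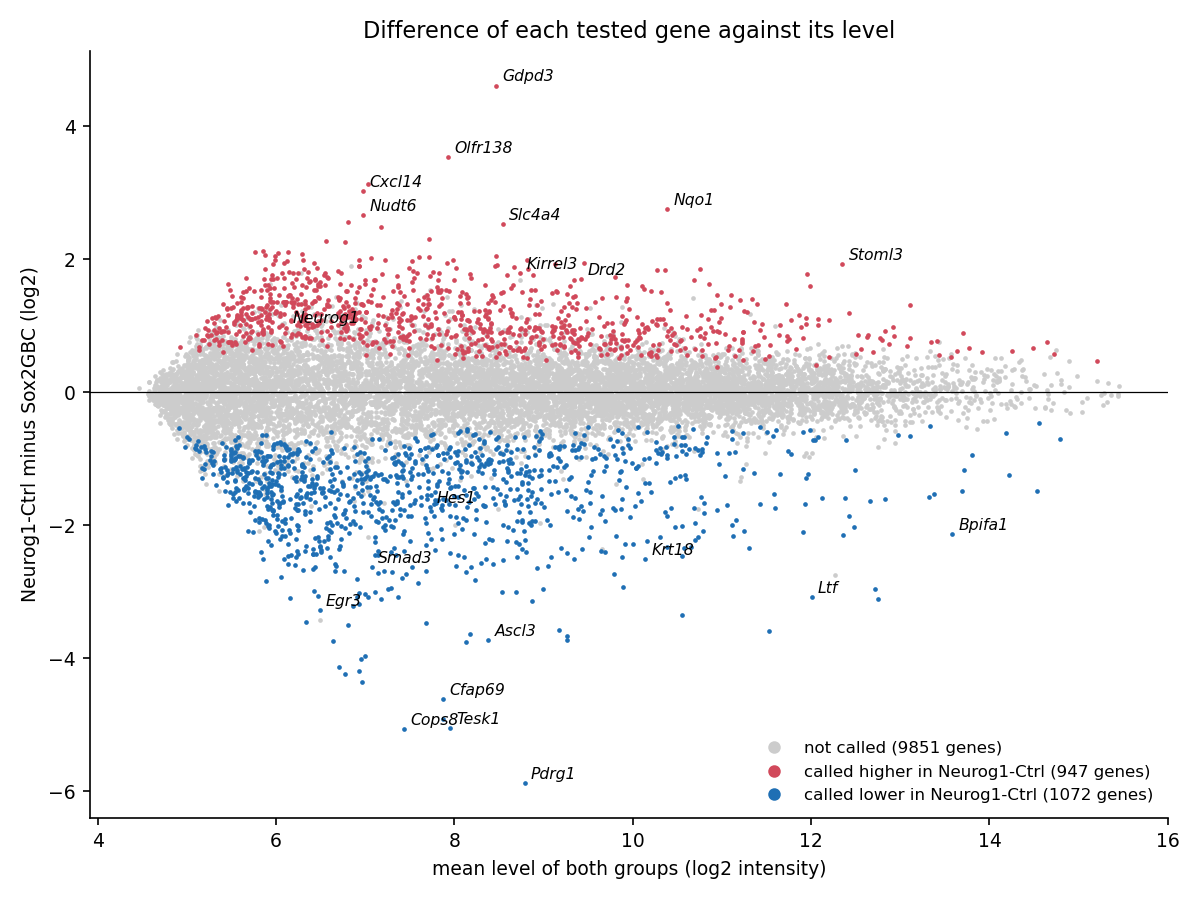
Difference (log2, Neurog1-Ctrl minus Sox2GBC) of each of the 11870 tested genes against its mean level over both groups (log2 intensity), with called genes coloured and some named. The 947 higher and 1072 lower calls occur at all levels, and the largest differences lie on the lower side, down to -5.87 for Pdrg1.

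The genes behind the sorts were read first. Neurog1, the proneural factor of the reporter, read 7.16, 6.34 and 6.30 in Neurog1-Ctrl and 5.43, 5.84 and 5.62 in Sox2GBC. It was above background on all 3 Neurog1-Ctrl arrays and on no Sox2GBC array, and the groups did not overlap (0.97 ± 0.25, adjusted p = 0.0121, at least 1.47-fold higher). This call ended on removal of Neurog1-Ctrl replicate 1 (0.69, adjusted p = 0.0936) or of Sox2GBC replicate 1 (0.87, adjusted p = 0.0542), and with scaling by the median of kept probes (0.74, adjusted p = 0.124). A bound of this kind sets the mean of the brighter group against the dimmest signal that counts as detected, or against the dim group's own signal where that is higher.

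Sox2, the gene of the other reporter, read 6.07, 6.28 and 6.13 in Neurog1-Ctrl and 6.72, 6.87 and 5.11 in Sox2GBC, so the groups overlapped (-0.07 ± 0.33, adjusted p = 0.912). Its difference was 0.17 without Sox2GBC replicate 1 and 0.24 without Sox2GBC replicate 2. Of the surface-label genes, Cdh1 (E-cadherin) read 8.18, 8.68 and 8.72 in Neurog1-Ctrl and 10.56, 10.42 and 9.27 in Sox2GBC. It was thus higher in the sort gated negative for its protein (-1.56 ± 0.35, adjusted p = 0.0048), while a second probe gave -0.24 and scaling by the median of all probes ended the call. Icam1 (CD54) was detected on 0 of 3 Neurog1-Ctrl and 3 of 3 Sox2GBC arrays and did not pass (-0.84 ± 0.31, adjusted p = 0.0724). It passed in 6 of the alternative settings, among them the fit over mucosal arrays whose negative controls spread alike. Of the compared groups that fit kept the 3 arrays of Neurog1-Ctrl and replicates 1 and 2 of Sox2GBC, beside arrays of other sorts.

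Hes1, the Notch-responsive repressor, read 6.57, 7.06 and 6.96 in Neurog1-Ctrl and 8.93, 8.63 and 8.22 in Sox2GBC. All Sox2GBC arrays were above all Neurog1-Ctrl arrays (-1.73 ± 0.33, adjusted p = 0.00151). Its mean was 12.27 in the sustentacular sort and 7.80 in mature OMP-GFP neurons, so both sorts of this comparison lay far below the supporting cells.

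Cxcl14, which encodes a chemokine, read 8.85, 8.62 and 7.98 in Neurog1-Ctrl and 5.93, 4.85 and 5.61 in Sox2GBC. It was detected on all 3 Neurog1-Ctrl arrays and on none of Sox2GBC (3.02 ± 0.30, adjusted p = 6.53e-06, at least 5.43-fold higher), and a second probe gave 3.07. In the RefSeq gene order Cxcl14 is the protein-coding gene next to Neurog1. It averaged 8.86 in Neurog1-OBX, the same Neurog1-GFP line sorted 3 weeks after removal of an olfactory bulb. The other 5 groups of the mucosa averaged 4.78 to 5.76. These are Sox2GBC, whole mucosa (OM), mature neurons sorted by OMP-GFP without and with bulb removal (OMP, OMP-OBX) and sustentacular cells (Sus). OMP-OBX cells were likewise taken 3 weeks after bulb removal. All 6 arrays of the line lay at least 1.81 above the other 15. Neurog1 itself stood apart by 0.02 on the same arrays. The same limit of line and stage holds here.

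**Figure D2:**
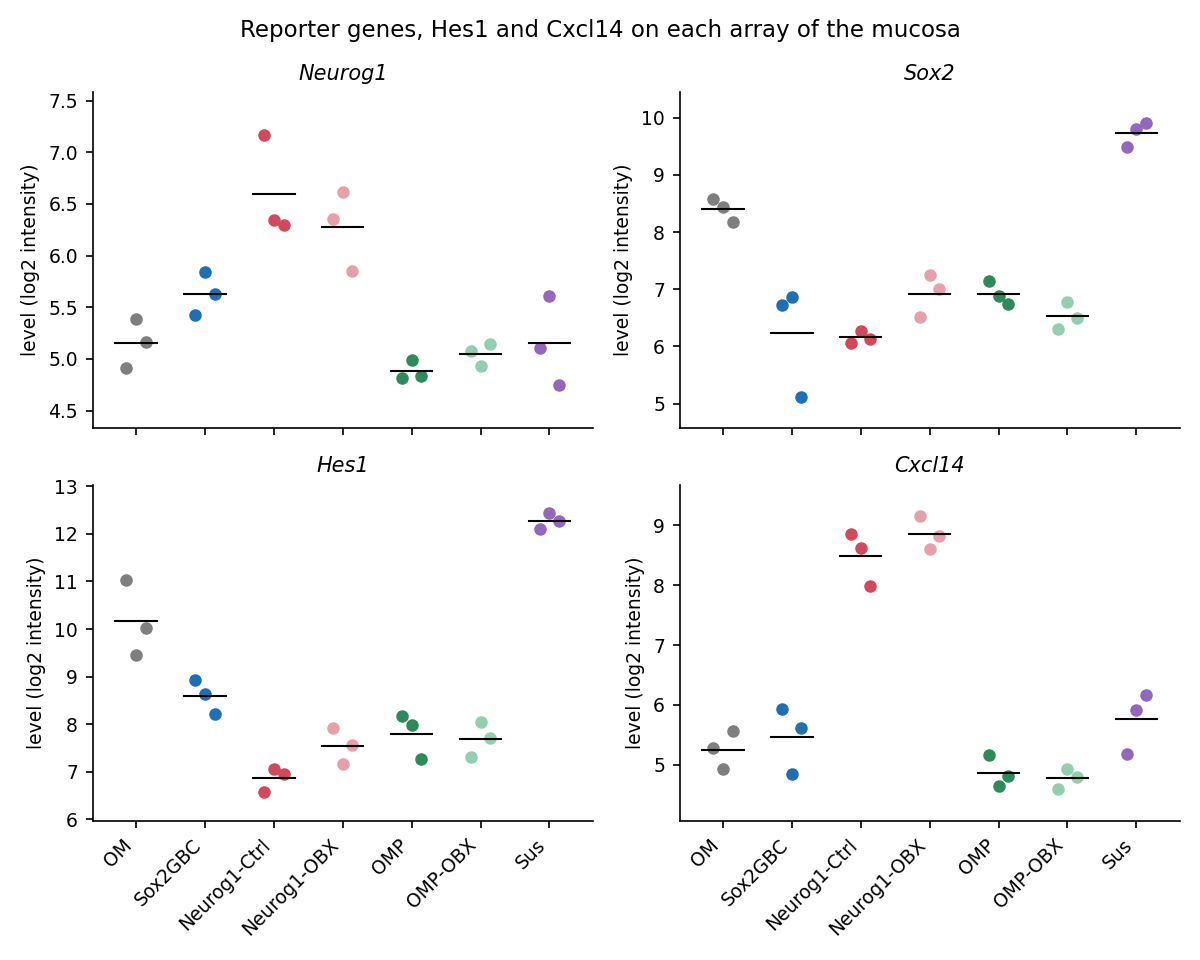
Level (log2 intensity) of Neurog1, Sox2, Hes1 and Cxcl14 on each of the 21 arrays of the mucosa, by group, with points for arrays and lines for group means. Cxcl14 is high on the 6 arrays of the Neurog1-GFP line only, Hes1 is highest in Sus, and Sox2 overlaps between Neurog1-Ctrl and Sox2GBC.

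Other genes near Neurog1 were read because Cxcl14 stood out, after their values were seen. Of the 6 tested genes on each side, 4 were called, all higher: Cxcl14, Caml (0.59 ± 0.18, adjusted p = 0.0333), Spock1 (0.84 ± 0.25, adjusted p = 0.0252) and Klhl3 (2.04 ± 0.31, adjusted p = 0.000219). Over all tested genes 7.98% were called higher and 9.03% lower, and the 4 include Cxcl14, which prompted this reading. Macroh2a1, the nearest tested gene on the other side of Neurog1, gave 0.52 ± 0.20 without passing (adjusted p = 0.0859). In contrast to Cxcl14, Klhl3 was also high outside the line, with means of 10.34 in OMP and 10.01 in the whole mucosa. The call of Caml ended without any 1 of 5 arrays, with values of 0.61 without Neurog1-Ctrl replicate 1, 0.49 without Neurog1-Ctrl replicate 3, 0.64 without Sox2GBC replicate 1 and 0.57 without Sox2GBC replicate 2 or 3. That of Spock1 ended on removal of Neurog1-Ctrl replicate 1 (0.80, adjusted p = 0.0858) or 3 (0.81, adjusted p = 0.0823) or of Sox2GBC replicate 1 (0.70, adjusted p = 0.111). Both calls also ended with a block for classes of arrays by the spread of their negative controls (0.52 for Caml and 0.70 for Spock1). Around Sox2, 1 of the 12 nearest tested genes was called, Anxa5 at 0.69 ± 0.17 (adjusted p = 0.00881).

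The promoters of the reporter gene Neurog1, its neighbour Cxcl14 and the Notch pathway genes Nrarp and Notch3 are shown as the 250 bases before the RefSeq start (GRCm38.p6), since these genes carry the marker and Notch results. Capitals mark 4 motifs searched on both strands. TGGGAA is the core to which RBPJ, the DNA-binding partner of Notch, attaches. CAGATG is an E-box of the type that neurogenins use. CACNAG is the N-box of Hes repressors, and CCCNNGGG the half-site pair of Ebf factors. The windows lie at chr13:56252181-56252430 (Neurog1, minus strand), chr13:56296552-56296801 (Cxcl14, minus strand), chr2:25180508-25180757 (Nrarp, plus strand) and chr17:32166891-32167140 (Notch3, minus strand).
Neurog1: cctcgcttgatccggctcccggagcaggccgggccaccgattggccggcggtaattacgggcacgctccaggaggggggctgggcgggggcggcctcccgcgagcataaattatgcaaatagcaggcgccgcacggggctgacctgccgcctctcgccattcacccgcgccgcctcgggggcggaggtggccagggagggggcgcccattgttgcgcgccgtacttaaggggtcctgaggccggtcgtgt
Cxcl14: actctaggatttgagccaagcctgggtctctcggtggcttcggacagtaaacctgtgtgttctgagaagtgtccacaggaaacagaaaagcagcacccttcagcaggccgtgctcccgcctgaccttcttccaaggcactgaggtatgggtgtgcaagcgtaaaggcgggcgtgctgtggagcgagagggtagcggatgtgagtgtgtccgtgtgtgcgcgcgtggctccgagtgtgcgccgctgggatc
Nrarp: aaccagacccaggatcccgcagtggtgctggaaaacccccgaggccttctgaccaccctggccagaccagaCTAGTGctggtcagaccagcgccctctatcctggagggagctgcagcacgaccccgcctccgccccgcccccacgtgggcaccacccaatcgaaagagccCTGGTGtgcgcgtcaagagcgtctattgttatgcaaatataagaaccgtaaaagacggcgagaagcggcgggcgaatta
Notch3: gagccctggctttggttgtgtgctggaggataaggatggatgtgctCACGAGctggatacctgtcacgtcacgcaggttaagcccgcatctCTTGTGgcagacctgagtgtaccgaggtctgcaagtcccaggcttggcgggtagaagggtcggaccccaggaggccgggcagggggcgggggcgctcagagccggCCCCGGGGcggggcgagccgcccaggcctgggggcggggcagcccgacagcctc
No motif was found in the windows of Neurog1 and Cxcl14, 2 N-boxes were found in that of Nrarp, and 2 N-boxes and 1 Ebf pair in that of Notch3. Among tested genes with a promoter in the table, the N-box occurred in 37.8% of 770 higher, 41.1% of 844 lower and 39.1% of all 9628. The RBPJ core occurred in 22.9% of higher, 211 of the 844 lower and 23.5% of all, and the shares were 11.7%, 12.2% and 12.3% for the E-box. The Ebf pair occurred in 16.8% of higher, 23.3% of lower and 17.9% of all. A match is a description of these letters and not a binding site.

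In the Notch pathway, 28 of 38 listed genes were tested, 2 were higher (7.14%) and 5 lower (17.9%), with a median of -0.10. The shares over all genes were 7.98% and 9.03%, so higher calls were about as frequent as elsewhere. The receptor Notch3 read 6.14, 7.17 and 6.43 in Neurog1-Ctrl and 8.73, 8.34 and 8.27 in Sox2GBC, without overlap (-1.87 ± 0.38, adjusted p = 0.00213). Nrarp, a target that dampens Notch signalling, read 8.53, 8.86 and 8.44 against 9.45, 9.58 and 9.55. It was lower in Neurog1-Ctrl (-0.91 ± 0.22, adjusted p = 0.00741), except that scaling by the median of all probes ended the call. Aph1b, a subunit of the gamma-secretase that releases the Notch intracellular domain, read 5.40, 7.25 and 5.18 against 9.74, 9.17 and 9.34 (-3.48 ± 0.42, adjusted p = 3.92e-05). Neurog1-Ctrl replicate 2, the only array of that group on which it was detected, lay above its fellows and still below all Sox2GBC arrays. The target Hey1 was lower (-1.25 ± 0.40, adjusted p = 0.0354) in a call that ended without Neurog1-Ctrl replicates 1 (-0.96) or 3 (-1.39) and without Sox2GBC replicates 1 (-1.08) or 2 (-1.21). Of the ubiquitin ligase genes that were higher, Dtx1 (0.72 ± 0.20, adjusted p = 0.0168) was not called without Neurog1-Ctrl replicate 1 (0.62) or without Sox2GBC replicates 1 (0.62) or 2 (0.70). Mib1 (0.95 ± 0.28, adjusted p = 0.0251) was not called without Neurog1-Ctrl replicates 1 (0.95) or 3 (0.89) or without Sox2GBC replicate 3 (0.59), nor with the noise class of the arrays as a block (0.85), within noise class 4 (0.59) or in a fit of the 2 groups alone (0.95, adjusted p = 0.0578). The noise class sorts arrays by the spread of their negative controls. Hes1 and Notch3 also belong to the list of sustentacular cell genes, and Notch3 averaged 11.33 in Sus.

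Receptor tyrosine kinase and growth factor genes were lower as far as they were called. Of 21 tested genes 10 (47.6%) were lower and 0 higher (median -0.95), against 9.03% and 7.98% of all genes. Fgfr2, a fibroblast growth factor receptor, read 5.57, 6.77 and 6.02 in Neurog1-Ctrl and 8.68, 8.68 and 8.35 in Sox2GBC (-2.45 ± 0.40, adjusted p = 0.000383). Erbb2 read 4.89, 5.97 and 5.56 against 7.73, 7.19 and 6.27 (-1.59 ± 0.37, adjusted p = 0.00582). Ret, the receptor of the glial-derived neurotrophic factor family, read 7.17, 7.40 and 7.19 against 8.16, 8.09 and 8.84 (-1.11 ± 0.22, adjusted p = 0.0016). None of the 3 overlapped between the groups, as with 1994 of the 2019 called genes and 45.4% of all genes. Ret differed from the others in its pattern, with means of 4.67 to 5.22 in OM, OMP, OMP-OBX and Sus and 7.19 in Neurog1-OBX. Igfbp5, which binds insulin-like growth factors, was also lower (-1.63 ± 0.36, adjusted p = 0.00402). Kit, a receptor used as a marker of globose basal cells, read 7.31, 7.46 and 7.09 against 9.14, 9.56 and 8.32 (-1.72 ± 0.44, adjusted p = 0.0111). Its call ended without Sox2GBC replicate 2 (-1.45, adjusted p = 0.0577), and a second Kit probe gave -0.21. With the mean of all probes of a gene, 5 rather than 10 genes of the list were lower.

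Wnt pathway genes gave 10 lower (34.5%) and 0 higher of 29 tested (median -0.32), against 9.03% and 7.98% of all genes. The transcription factor Tcf7l1 read 6.12, 6.59 and 6.39 in Neurog1-Ctrl against 8.44, 8.32 and 8.12 (-1.93 ± 0.27, adjusted p = 0.000113). The secreted antagonist Sfrp1 (-1.93 ± 0.35, adjusted p = 0.000864) and the ligand Wnt7b (-1.60 ± 0.36, adjusted p = 0.00467) were lower as well. Wnt4 and the receptor Fzd5 were detected on 3 of 3 Sox2GBC and 0 of 3 Neurog1-Ctrl arrays, at least 2.43-fold and 1.92-fold lower in Neurog1-Ctrl (adjusted p = 0.00013 and 0.00083). Ligands, a receptor, a transcription factor and an antagonist of the pathway thus all lay on the same side. With scaling by the median of all probes, 6 genes of the list were lower.

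TGF-beta and BMP genes gave 5 lower (21.7%) and 0 higher of 23 tested (median -0.36), against 9.03% and 7.98% of all genes. Smad3, which carries TGF-beta signals to the nucleus, read 5.35, 6.24 and 5.70 against 8.53, 8.61 and 8.04 (-2.63 ± 0.32, adjusted p = 3.92e-05, second probe -1.23). Bmp4 read 4.87, 5.95 and 4.84 against 7.13, 7.37 and 6.84 (-1.89 ± 0.36, adjusted p = 0.00131), and it averaged 4.72 to 5.67 in the other sorts and 6.37 in the whole mucosa. Bmp7 was at least 1.34-fold lower (adjusted p = 0.00056). These signalling genes differ in where else they were read: Smad3, Tcf7l1 and Wnt4 averaged 10.26, 10.49 and 9.54 in the sustentacular sort, above Sox2GBC, whereas Fgfr2 and Bmp4 averaged 7.65 and 4.72 there, below it. Markers of sustentacular cells moved with these gene groups, as given further on, and their part in the result was not tested.

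**Figure D3:**
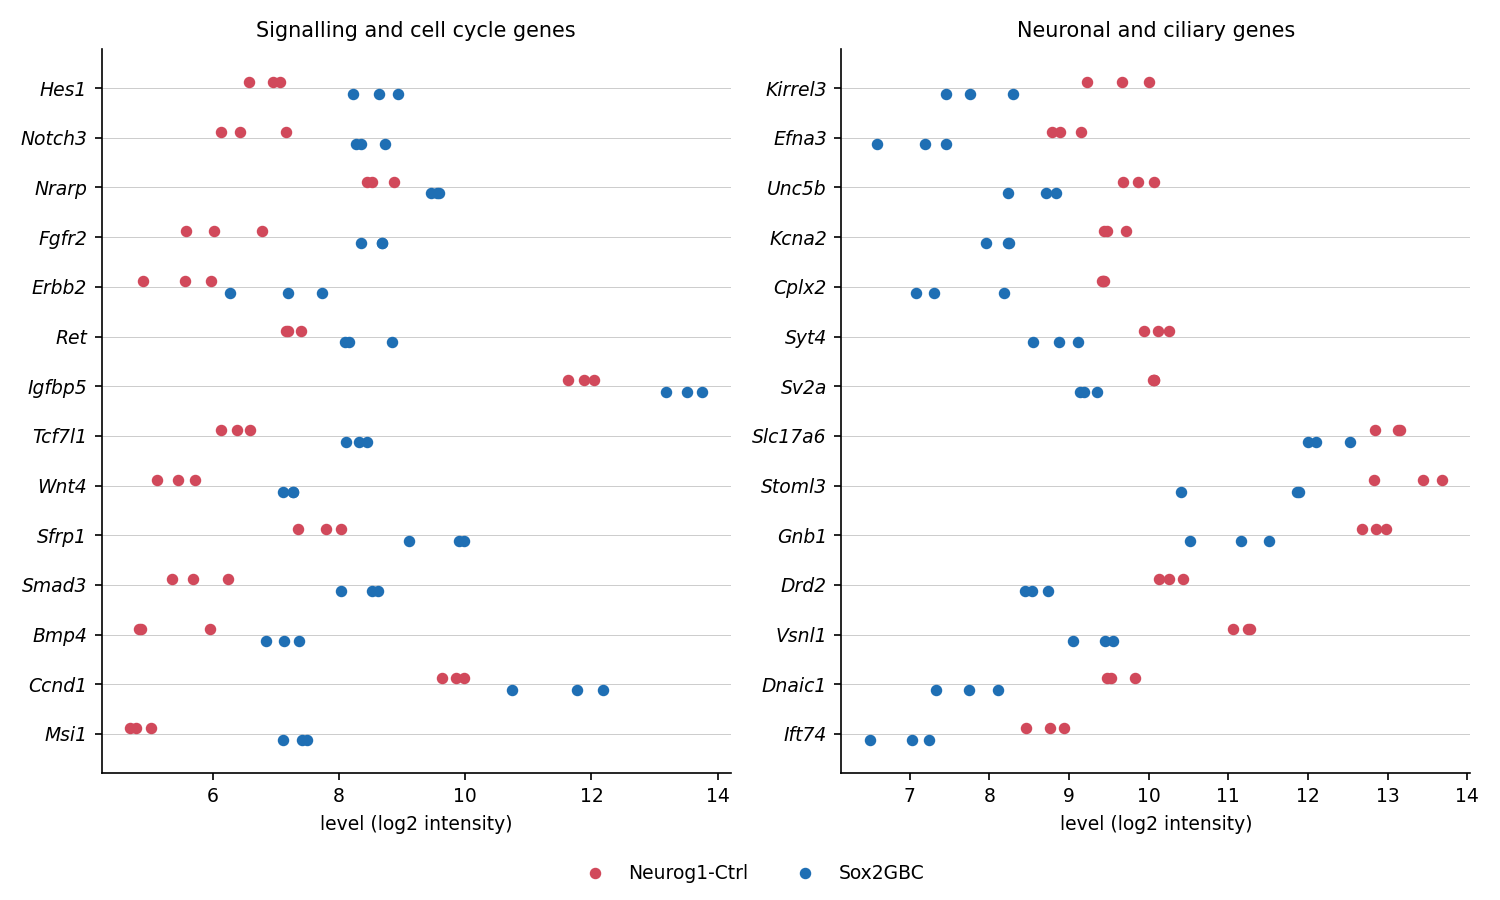
Level (log2 intensity) of 28 called genes on each of the 6 arrays, with 3 points per group. Every signalling and cell cycle gene on the left has its 3 Sox2GBC points to the right of (higher than) its 3 Neurog1-Ctrl points, and every neuronal and ciliary gene on the right has them to the left. The groups were likewise separate for 1994 of the 2019 called genes.

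Cell cycle genes gave few calls. Of 29 tested mitosis genes 0 were called by limma (median 0.33). At an unadjusted p under 0.05 were 3 of the 29, against 3513 of all 11870 genes. Of 40 DNA replication and G1/S genes, 3 (7.5%) were lower and 0 higher (median -0.09), against 9.03% lower and 7.98% higher over all genes. Ccnd1, a cyclin of the G1 phase, read 9.98, 9.86 and 9.63 in Neurog1-Ctrl and 11.77, 12.18 and 10.74 in Sox2GBC, without overlap (-1.74 ± 0.31, adjusted p = 0.000904, other probes -1.03 and -1.86). It averaged 13.40 in Sus, which are largely quiescent in the normal epithelium. Ccng2, a cyclin linked to arrest of the cycle, was at least 5.18-fold lower in Neurog1-Ctrl (adjusted p = 0.000251). It was also low in Neurog1-OBX, at a mean of 5.98 against 7.33 to 8.36 in the other 5 groups, and stood apart by mouse line. Msi1, an RNA-binding protein of neural progenitors, was detected on 0 of 3 Neurog1-Ctrl and 3 of 3 Sox2GBC arrays (-2.51 ± 0.50, adjusted p = 0.00187, at least 2.65-fold), yet averaged 7.10 in OMP. Among 16 proneural and precursor factors only Neurog1 was called (median -0.11). Insm1, which marks the passage from progenitor to neuron, read 14.01, 13.74 and 13.76 against 13.15, 13.50 and 13.65 (0.41 ± 0.40, adjusted p = 0.555). It was near the top of the scale in both sorts.

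Genes of the neuron's output were called higher more often than lower. Of 24 presynaptic genes, 9 were higher (37.5%) and 1 lower (4.17%, median 0.57), against 7.98% and 9.03% of all genes. Cplx2, which controls vesicle release, read 9.43, 9.44 and 9.42 in Neurog1-Ctrl and 8.18, 7.31 and 7.09 in Sox2GBC (1.90 ± 0.31, adjusted p = 0.000451). Syt4, a vesicle protein, read 10.12, 10.26 and 9.94 against 9.11, 8.88 and 8.55 (1.26 ± 0.24, adjusted p = 0.0015). Slc17a6, the vesicular glutamate transporter of olfactory neurons, read 13.16, 12.85 and 13.12 against 12.52, 12.10 and 12.01 (0.83 ± 0.19, adjusted p = 0.00533). All 3 genes separated the groups without overlap, as did the vesicle protein gene Sv2a (0.84 ± 0.18, adjusted p = 0.00289). Such separation held for 1994 of the 2019 called genes and for 45.4% of all genes.

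Of 39 axon guidance genes 6 were higher (15.4%) and 4 lower (10.3%, median 0.13), against 7.98% and 9.03% of all genes. Scaling by the median of all probes gave 9 higher and 0 lower. Kirrel3, an adhesion molecule that sorts olfactory axons, read 9.66, 9.22 and 10.004 in Neurog1-Ctrl against 8.30, 7.46 and 7.76 (1.79 ± 0.27, adjusted p = 0.000243). Efna3, an ephrin ligand, read 8.89, 8.79 and 9.15 against 7.46, 7.19 and 6.60 (1.86 ± 0.39, adjusted p = 0.00298). The netrin receptor gene Unc5b was higher by 1.28 ± 0.30 (adjusted p = 0.00575). The lower calls of this list numbered 0 without Neurog1-Ctrl replicate 1, 1 without Neurog1-Ctrl replicate 3 or Sox2GBC replicate 1, and 2 without Sox2GBC replicate 2.

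Ion channel genes gave 6 higher (22.2%) and 3 lower (11.1%) of 27 (median 0.31), against 7.98% and 9.03% of all genes. Kcna2, a voltage-gated potassium channel, read 9.48, 9.44 and 9.72 against 8.25, 8.24 and 7.96 (1.39 ± 0.26, adjusted p = 0.00111). Kcnk2, a background potassium channel, lay the other way, at 6.53, 7.26 and 6.97 against 8.75, 8.56 and 8.09 (-1.55 ± 0.34, adjusted p = 0.00363). Without Neurog1-Ctrl replicate 1, Neurog1-Ctrl replicate 3 or Sox2GBC replicate 3, 2 rather than 6 channel genes were higher.

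In the odorant transduction cascade 7 of 22 genes were higher and 1 lower (median 0.38). Stoml3, a membrane protein of the sensory cilia, read 13.44, 12.83 and 13.68 in Neurog1-Ctrl and 11.89, 11.87 and 10.40 in Sox2GBC (1.93 ± 0.46, adjusted p = 0.00741). Gnb1, a G protein beta subunit, read 12.86, 12.67 and 12.98 against 11.52, 11.16 and 10.52 (1.77 ± 0.36, adjusted p = 0.00255). Reep1, which helps carry receptors to the membrane, was higher by 0.95 ± 0.20 (adjusted p = 0.00272). Without Neurog1-Ctrl replicate 1 or Sox2GBC replicate 3 the count of higher genes was 4. Among 30 mature neuron genes, several of which are in the lists above, 10 were higher and 1 lower (median 0.49), with 6 higher without either of the same arrays. Omp, the marker of mature neurons, was bright in both sorts and did not pass, at 15.10, 15.37 and 15.23 in Neurog1-Ctrl and 15.39, 15.28 and 15.16 in Sox2GBC (-0.05 ± 0.18, adjusted p = 0.901). A second Omp probe gave 2.97, and the mean of both probes 1.46 (adjusted p = 0.0099). Among 27 immature neuron genes 3 were higher and 0 lower (median 0.03), a count that became 0 on removal of Neurog1-Ctrl replicate 1 and 1 on removal of Neurog1-Ctrl replicate 3 or of Sox2GBC replicate 1 or 3. The shared background of these counts is 7.98% higher and 9.03% lower. In these bulk samples fewer cells of a type and less RNA per cell cannot be told apart.

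Many odorant receptor genes were higher in Neurog1-Ctrl. Of 1075 receptor genes and pseudogenes on the array 583 were tested. Of these 170 (29.2%) were higher and 3 (0.515%) lower, against 7.98% and 9.03% of all genes. The median was 0.71, or 0.33 with the authors' processed values. All 3 Neurog1-Ctrl arrays detected 305 of them and all 3 Sox2GBC arrays 107. A receptor could pass the detection filter through the group where it was high, so count and median are a description of the genes that passed. Olfr138 read 9.78, 9.31 and 9.996 in Neurog1-Ctrl and 6.03, 5.34 and 7.12 in Sox2GBC (3.53 ± 0.45, adjusted p = 5.56e-05). Olfr549 read 7.98, 7.92 and 8.36 against 5.81, 6.01 and 4.75 (2.56 ± 0.44, adjusted p = 0.000593), with 1.44 on a second probe. Olfr691 and Olfr596 were detected on all Neurog1-Ctrl arrays and on none of Sox2GBC, at least 3.15-fold and 2.03-fold higher (adjusted p = 0.000383 and 0.00152). The receptors named here were picked among genes whose arrays did not overlap between the groups. Of the tested receptors, 146 were detected on no array of either group. Leaving out an array lowered the count of higher receptors, to 77 for Neurog1-Ctrl replicate 1, 84 for Neurog1-Ctrl replicate 3 and 103 for Sox2GBC replicate 3. It was 97 with scaling by the median of kept probes and 257 with scaling by the median of all probes. Receptor genes are close copies of each other, and a probe may read more than its named gene.

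Among 32 genes of multiciliated cells and their axonemes, 11 were higher (34.4%) and 2 lower (6.25%, median 0.39), against 7.98% and 9.03% of all genes. Dnaic1, an intermediate chain of axonemal dynein, read 9.48, 9.82 and 9.53 in Neurog1-Ctrl and 7.33, 7.74 and 8.11 in Sox2GBC (1.89 ± 0.29, adjusted p = 0.000301), and averaged 9.998 in OMP. Cfap43 was detected on all Neurog1-Ctrl arrays and on none of Sox2GBC (at least 2.12-fold, adjusted p = 0.000635). Cfap126 (1.23 ± 0.27, adjusted p = 0.00419) and the radial spoke gene Rsph4a (0.96 ± 0.21, adjusted p = 0.00328) were higher too. Ift74, a part of the machinery that builds all cilia, read 8.76, 8.46 and 8.94 against 7.03, 7.24 and 6.50 (1.80 ± 0.25, adjusted p = 0.000124). The list of olfactory cilia, transport and BBSome genes gave 2 higher (5.88%) and 0 lower of 34 (median 0.17), shares below those of all genes. That higher count was 7 with scaling by the median of all probes. It was 1 without Neurog1-Ctrl replicate 1 or 3 or Sox2GBC replicate 2 or 3. The 11 axonemal calls became 6 on removal of Neurog1-Ctrl replicate 1 and 5 on removal of Neurog1-Ctrl replicate 3 or Sox2GBC replicate 3. Both lower genes, Cfap69 and the dynein light chain gene Dnali1, were also low on all arrays of the Neurog1-GFP line, as described further on. Dnali1 (-1.44 ± 0.36, adjusted p = 0.00911) gave 0.64 on a second probe and -1.23 (adjusted p = 0.0584) without Neurog1-Ctrl replicate 1.

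Outside the lists, Drd2, the dopamine receptor by which the bulb restrains olfactory nerve terminals, read 10.43, 10.25 and 10.13 in Neurog1-Ctrl and 8.73, 8.44 and 8.54 in Sox2GBC (1.70 ± 0.19, adjusted p = 2.95e-05). Vsnl1, a neuronal calcium sensor, read 11.27, 11.06 and 11.25 against 9.56, 9.45 and 9.05 (1.84 ± 0.25, adjusted p = 8.52e-05). Pcdha2 and Pcdhb7, clustered protocadherins of neuronal surfaces, were higher by 1.94 ± 0.21 and 1.52 ± 0.19 (adjusted p = 1.56e-05 and 5.06e-05). The anchoring protein gene Akap6 (1.58 ± 0.21, adjusted p = 8.44e-05), the urea transporter gene Slc14a2 (1.61 ± 0.19, adjusted p = 3.87e-05) and the cytokine gene Il18 (1.43 ± 0.18, adjusted p = 4.76e-05) were among the higher genes of smallest p. These 7 were picked among genes whose arrays did not overlap between the groups. Drd2 and Vsnl1 averaged 11.36 and 11.78 in OMP, above Neurog1-Ctrl. Cell death genes showed 4 higher (16%) and 3 lower (12%) of 25 (median 0.06), against 7.98% and 9.03% of all genes. They were led by the survival gene Bcl2 at 9.84, 9.55 and 9.87 against 7.89, 8.07 and 7.74 (1.85 ± 0.25, adjusted p = 8.96e-05), whose other probes gave 0.69, 1.81, 0.77 and 2.17. The higher count of this list was 2 without Neurog1-Ctrl replicate 1 or 3 or Sox2GBC replicate 1 or 3, and the lower count 1 without Neurog1-Ctrl replicate 3 or Sox2GBC replicate 1. Casp8, the caspase of death receptors, was at least 2.22-fold lower (adjusted p = 0.00276), and Faim2, an inhibitor of that route, was higher by 1.24 ± 0.20 (adjusted p = 0.000319).

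Markers of other epithelial cells were lower in Neurog1-Ctrl in 4 lists. Of the tested sustentacular and Bowman gland genes 77.3% and 70.4% were lower, against 9.03% of all genes. Of 22 sustentacular genes 17 were lower and 0 higher (median -1.64), and their summed level, the log2 of the sum of their intensities, ran from 15.59 to 16.27 over the Neurog1-Ctrl arrays and from 16.88 to 17.55 over the Sox2GBC arrays. Krt18, a keratin of sustentacular cells, read 8.35, 9.23 and 9.06 in Neurog1-Ctrl and 11.78, 11.59 and 10.80 in Sox2GBC (-2.51 ± 0.34, adjusted p = 8.96e-05), against a mean of 13.56 in Sus. Its partner Krt8 was lower by -2.23 ± 0.39 (adjusted p = 0.000637). Bowman gland and secretory genes gave 19 lower of 27 (median -1.99), with summed levels of 14.81 to 16.03 and of 17.20 to 17.52. Sox9, the factor of gland and duct cells, read 7.60, 8.38 and 8.09 against 10.88, 10.22 and 9.99 (-2.34 ± 0.29, adjusted p = 3.92e-05). The secreted protein gene Bpifa1, at 12.12, 12.93 and 12.50 against 14.94, 14.63 and 14.37, was bright in both sorts (-2.13 ± 0.36, adjusted p = 0.00056). The gland water channel gene Aqp5 was lower by -2.33 ± 0.29 (adjusted p = 3.92e-05), the antimicrobial gene Reg3g by -2.48 ± 0.43 (adjusted p = 0.000672) and Ltf, the lactoferrin gene, by -3.08 ± 0.50 (adjusted p = 0.000418, second probe -1.51).

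Horizontal basal cells are the reserve stem cells of the epithelium and carry surface CD54. Of their 19 tested genes 10 (52.6%) were lower and 0 higher (median -1.34), against 9.03% and 7.98% of all genes. Their summed levels ran from 11.29 to 11.83 in Neurog1-Ctrl and from 12.64 to 13.53 in Sox2GBC. Krt5 read 5.57, 5.90 and 5.36 against 6.58, 7.85 and 7.38 (-1.66 ± 0.37, adjusted p = 0.00474) and Krt14 8.70, 9.06 and 7.89 against 10.20, 10.97 and 9.86 (-1.79 ± 0.38, adjusted p = 0.00296). The genes Itgb4 (-1.77 ± 0.29, adjusted p = 0.000383) and Col17a1 (-1.43 ± 0.22, adjusted p = 0.000317, other probes -0.92 and -0.57), which anchor basal cells to the matrix, were lower as well. Krt5 and Krt14 averaged 9.75 and 12.66 in the whole mucosa, above Sox2GBC. All 4 genes separated the groups, as did 1994 of the 2019 called genes and 45.4% of all genes.

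Microvillar, brush cell and ionocyte genes gave 14 lower (60.9%) and 1 higher (4.35%) of 23 (median -1.26), against 9.03% and 7.98% of all genes. The counts were 9 lower without Sox2GBC replicate 1 and 0 higher without any 1 Neurog1-Ctrl array or Sox2GBC replicate 3. Ascl3, a factor of microvillar and gland duct progenitors, read 6.09, 6.73 and 6.72 in Neurog1-Ctrl and 11.28, 10.57 and 8.89 in Sox2GBC (-3.73 ± 0.56, adjusted p = 0.000218). The ionocyte genes Foxi1 and Cftr were detected on 0 of 3 Neurog1-Ctrl and 2 of 3 Sox2GBC arrays, at least 1.97-fold and 2.94-fold lower (adjusted p = 0.00197 and 0.00354), and a second Foxi1 probe gave -0.88. The brush cell genes Trpm5 and Avil were lower by -1.52 ± 0.30 and -1.98 ± 0.37 (adjusted p = 0.00183 and 0.00121). Single genes and sum went apart in this list, since its summed level of 15.14 to 15.37 in Neurog1-Ctrl overlapped that of 14.72 to 15.28 in Sox2GBC. Some tight junction genes were lower too. Cldn4 read 6.67, 6.61 and 6.33 against 9.51, 8.53 and 8.44 (-2.29 ± 0.30, adjusted p = 5.68e-05), and Cldn10 was lower by -2.40 ± 0.38 (adjusted p = 0.000319). Of 33 adhesion and junction genes 10 (30.3%) were lower and 1 (3.03%) higher (median -0.47).

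Among genes of cells from outside the epithelium, detection differed between lists. On all 3 Sox2GBC arrays 9 of 10 endothelial and 8 of 10 ensheathing and glial genes were detected, but 4 of 18 myeloid genes. The number over all 11870 genes was 8742. On all 3 Neurog1-Ctrl arrays 3 endothelial, 6 ensheathing and glial and 3 myeloid genes were detected, and 8994 of all genes. The myeloid marker Csf1r was detected on no array of either group and Tyrobp on 1 Sox2GBC array, while 5 of 18 myeloid genes were lower (median -0.52), with summed levels of 10.499 to 11.42 and of 12.23 to 13.12. Among the 5 were Cd14 (at least 1.75-fold lower, adjusted p = 0.00805) and the lysozyme gene Lyz1 (-1.99 ± 0.38, adjusted p = 0.00127, second probe -0.63), which secretory epithelium also expresses. On removal of an array it was 2 for Neurog1-Ctrl replicate 1 and 3 for Neurog1-Ctrl replicates 2 or 3 or Sox2GBC replicates 1 or 3. Of 10 ensheathing and glial genes 5 were lower (median -1.38, summed levels of 10.94 to 11.47 and of 11.99 to 12.43), a count of 2 without Neurog1-Ctrl replicate 1 or 3 and 1 without Sox2GBC replicate 2. Endothelial genes gave 3 lower of 10 (median -1.21, summed levels of 9.65 to 10.34 and of 10.72 to 11.54), a count of 1 on removal of Neurog1-Ctrl replicate 1 and 0 on removal of Neurog1-Ctrl replicate 3 or Sox2GBC replicate 2 or 3. Among 3 lymphoid and 5 erythroid genes limma called 0, and 0 and 0 had an unadjusted p under 0.05. Shares lower were 27.8%, 50% and 30% of the tested myeloid, ensheathing and glial, and endothelial genes, against 9.03% of all genes. The part of any other cell type in the lower genes was not tested.

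**Figure D4:**
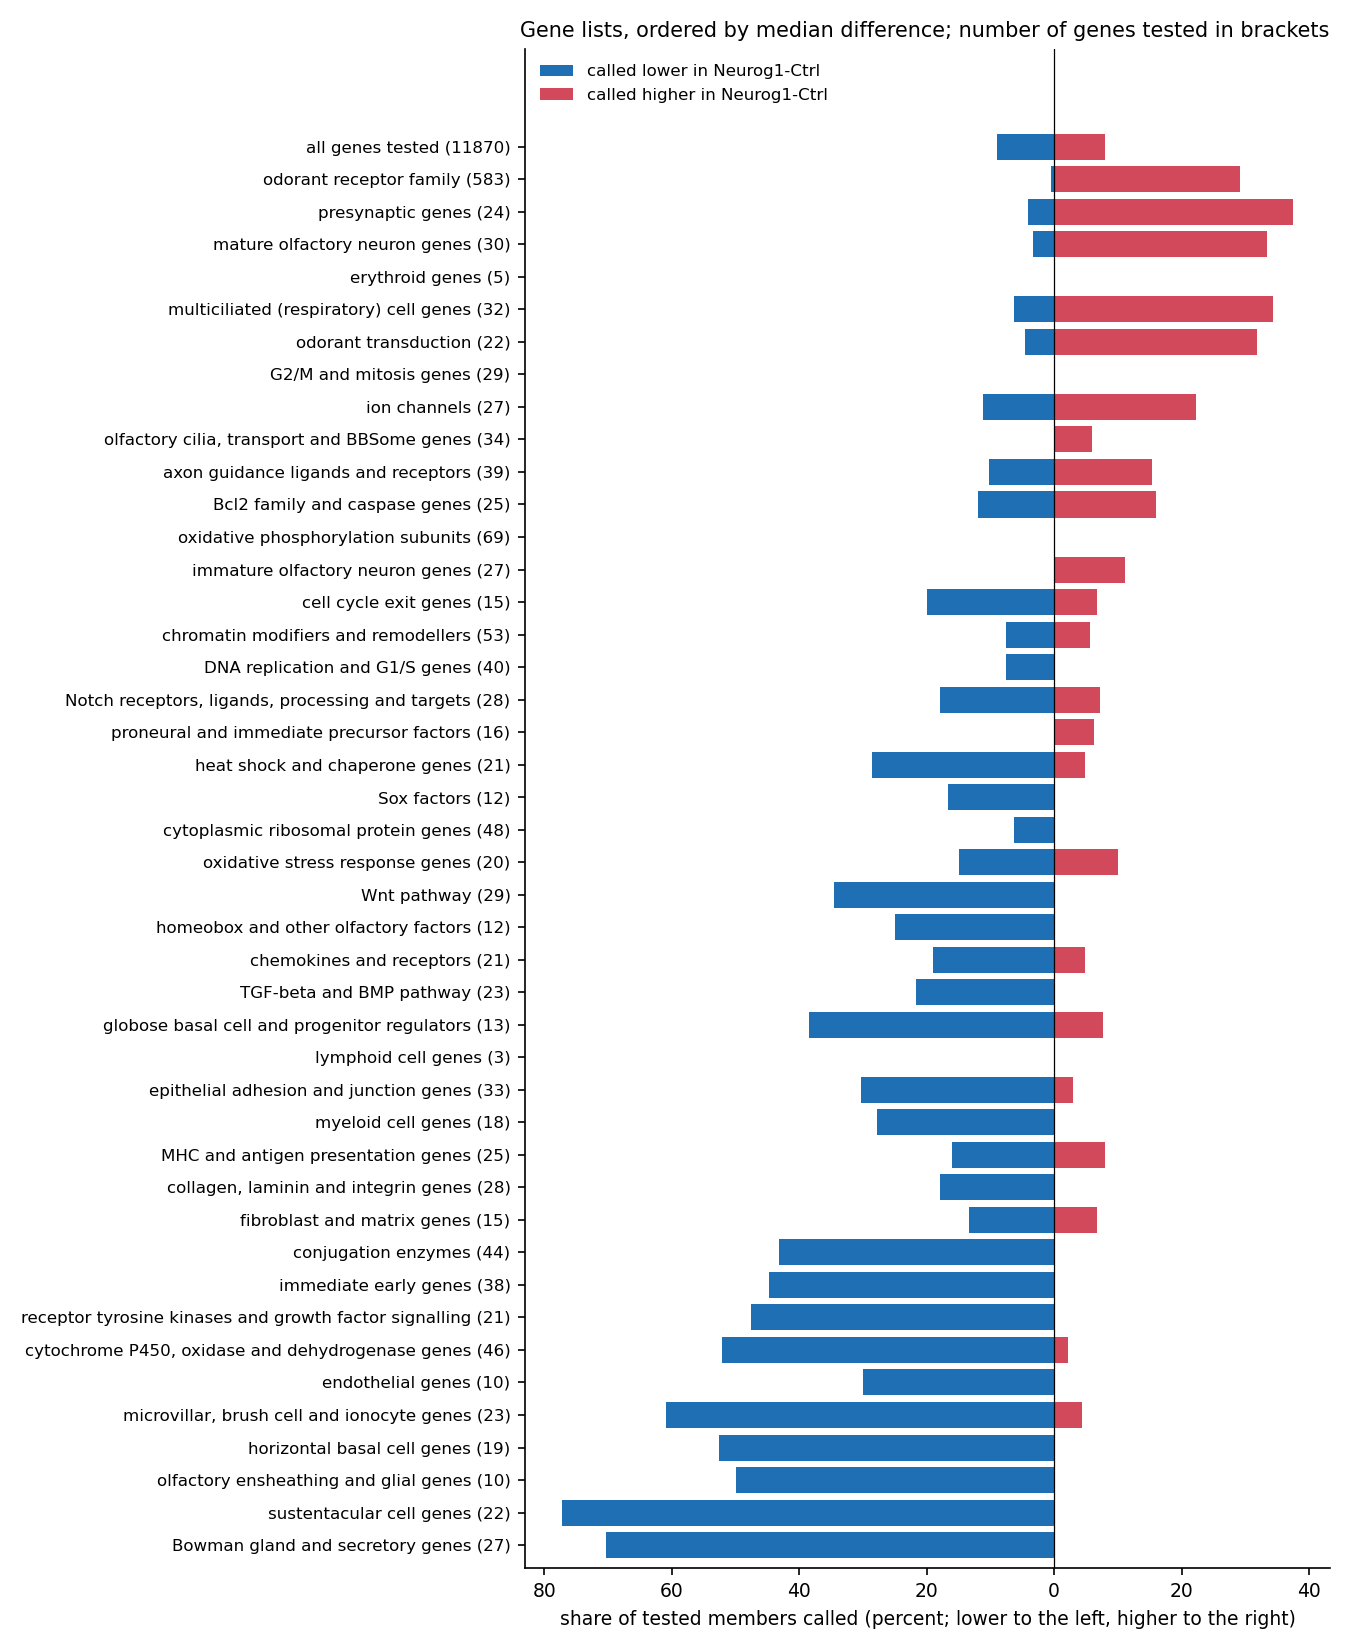
Share of the tested members of each gene list called lower (blue, left) or higher (red, right) in Neurog1-Ctrl, in percent, with lists ordered by median difference and all tested genes at the top. Sustentacular, Bowman gland and microvillar lists hold the largest shares of lower calls, and presynaptic, axonemal and mature neuron lists the largest shares of higher calls.

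Many enzymes that process inhaled chemicals were lower in Neurog1-Ctrl. Cytochrome P450, oxidase and dehydrogenase genes gave 24 lower (52.2%) and 1 higher (2.17%) of 46 (median -1.02), or 14 lower without Neurog1-Ctrl replicate 1. Conjugation enzymes gave 19 lower (43.2%) and 0 higher of 44 (median -0.61). The shares over all genes were 9.03% lower and 7.98% higher. Adh1, an alcohol dehydrogenase, read 6.70, 7.56 and 7.32 in Neurog1-Ctrl and 10.06, 10.68 and 9.83 in Sox2GBC (-3.00 ± 0.47, adjusted p = 0.000317). Gstt1, a glutathione transferase, read 4.92, 5.89 and 5.43 against 7.70, 7.88 and 7.37 (-2.24 ± 0.25, adjusted p = 2.22e-05). The P450 gene Cyp1a2 (-1.97 ± 0.39, adjusted p = 0.00179), the aldehyde oxidase gene Aox3 (-1.63 ± 0.28, adjusted p = 0.000643), the carboxylesterase gene Ces1d (-1.87 ± 0.31, adjusted p = 0.000455) and the glutathione transferase gene Gstm2 (-2.03 ± 0.28, adjusted p = 9.9e-05) were lower. Nqo1, a quinone reductase, was the gene of these lists that was higher, at 11.60, 11.63 and 12.06 against 9.26, 9.46 and 8.33 (2.75 ± 0.44, adjusted p = 0.000322), with means of 12.33 in OMP and 8.72 in Sus. Osgin1, like Nqo1 a gene of the oxidative stress response, lay the other way, at least 3.08-fold lower (adjusted p = 0.000451), with a mean of 11.47 in Sus. The sustentacular list shares several of these enzymes, and its summed level moved with them, a part that was not tested.

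Immediate early genes respond to stimuli within minutes and also to tissue dissociation. They gave 17 lower (44.7%) and 0 higher of 38 (median -0.66), against 9.03% and 7.98% of all genes. Egr1 read 9.39, 10.11 and 10.63 in Neurog1-Ctrl and 12.44, 12.13 and 12.06 in Sox2GBC (-2.17 ± 0.36, adjusted p = 0.000453). Fos read 8.84, 9.12 and 10.0015 against 11.93, 11.91 and 11.49 (-2.45 ± 0.39, adjusted p = 0.000317). Zfp36, which degrades inflammatory transcripts, read 6.87, 7.78 and 7.90 against 10.68, 10.66 and 10.09 (-2.96 ± 0.35, adjusted p = 3.54e-05). Egr3 was detected on all Sox2GBC arrays and on none of Neurog1-Ctrl (at least 4.56-fold, adjusted p = 0.000253), and Fosb (-2.63 ± 0.46, adjusted p = 0.000692) and Junb (-1.89 ± 0.23, adjusted p = 3.92e-05) were lower too. None of these 6 overlapped between the groups, which also held for 1994 of the 2019 called genes and for 45.4% of all genes. Heat shock and chaperone genes gave 6 lower (28.6%) and 1 higher (4.76%) of 21 (median -0.20), or 3 lower without Neurog1-Ctrl replicate 1. The co-chaperone gene Bag3 (-1.95 ± 0.28, adjusted p = 0.00013) and its partner Hspb8 (-1.87 ± 0.30, adjusted p = 0.000383) were among them, and Bag3 lay lower on all 6 arrays of the Neurog1-GFP line than on the other 15.

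Immune genes were called in both directions, against 9.03% lower and 7.98% higher over all genes. Of 25 MHC and antigen presentation genes 4 were lower (16%) and 2 higher (median -0.53). The lower count was 2 without Neurog1-Ctrl replicate 1, and the higher count was 0 without Neurog1-Ctrl replicate 1 or 3 or Sox2GBC replicate 2 or 3, and 1 without Neurog1-Ctrl replicate 2. H2-Eb1, a class II chain, was detected on all Sox2GBC arrays and on none of Neurog1-Ctrl (-3.10 ± 0.42, adjusted p = 8.6e-05, at least 3.40-fold), with a mean of 11.05 in the whole mucosa. Among 21 chemokine and receptor genes Cxcl14 alone was higher, and 4 were lower (median -0.36), including Cxcl1, which draws neutrophils (at least 2.37-fold, adjusted p = 0.00062), and Cx3cl1 (-1.28 ± 0.28, adjusted p = 0.00397). Cx3cl1 averaged 6.42 in Neurog1-OBX and 7.76 to 9.84 in the other 5 groups, and like Cxcl14 it stood apart by line. Among the other lists, globose basal cell regulators had 5 of 13 lower (38.5%) and 1 higher, and that higher call was lost on removal of any 1 of the 6 arrays. Homeobox and other factors had 3 of 12 lower, cell cycle exit genes 3 of 15 lower (20%) and 1 higher, collagen, laminin and integrin genes 5 of 28 lower (17.9%) and Sox factors 2 of 12 lower (16.7%). Oxidative stress genes had 3 of 20 lower, or 1 without Neurog1-Ctrl replicate 1 or Sox2GBC replicate 2, and 2 higher, or 1 without Neurog1-Ctrl replicate 1 or 3 or Sox2GBC replicate 1 or 3. The higher call among cell cycle exit genes was lost without Neurog1-Ctrl replicate 1 or 3 or Sox2GBC replicate 1 or 3, and 1 Sox factor was lower without Neurog1-Ctrl replicate 1 or 3 or Sox2GBC replicate 2. Of 15 fibroblast and matrix genes 2 were lower and 1 higher. Their lower count was 0 without Neurog1-Ctrl replicate 3 or Sox2GBC replicate 2 and 1 without Neurog1-Ctrl replicate 1 or Sox2GBC replicate 1 or 3, and the higher call was lost without Neurog1-Ctrl replicate 3 or Sox2GBC replicate 3. Chromatin genes had 3 higher and 4 lower of 53, with 1 higher without Neurog1-Ctrl replicate 3, and ribosomal protein genes 0 and 3 of 48, with 1 lower without any 1 of the 6 arrays. Their medians ran from -0.55 for fibroblast and matrix genes to 0.03 for cell cycle exit genes. Of 69 oxidative phosphorylation subunits 0 were called by limma, 3 had an unadjusted p under 0.05, and the median was 0.04.

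Several of the largest differences lay outside the gene lists. Gdpd3, a phospholipid-processing enzyme, read 10.81, 10.81 and 10.69 in Neurog1-Ctrl and 6.12, 5.41 and 6.96 in Sox2GBC (4.61 ± 0.51, adjusted p = 2.19e-05), with means of 9.84 in Neurog1-OBX, 9.61 in OM, 6.08 in OMP and 7.64 in Sus. Slc4a4, a sodium bicarbonate cotransporter, read 9.63, 9.79 and 9.99 against 7.59, 6.65 and 7.59 (2.52 ± 0.38, adjusted p = 0.000243). Nudt6 read 8.12, 8.56 and 8.24 against 4.97, 4.79 and 7.17 (2.66 ± 0.45, adjusted p = 0.000545), with Sox2GBC replicate 3 closer to Neurog1-Ctrl than its fellows, and averaged 5.24 in Sus and 7.84 to 8.18 in OM, OMP and OMP-OBX. On the lower side, Pdrg1 read 4.53, 8.33 and 4.69 against 11.67, 11.63 and 11.87 (-5.87 ± 1.004, adjusted p = 0.000593). Neurog1-Ctrl replicate 2 was far above the other 2 arrays of its group. Cops8, a subunit of the COP9 signalosome found in all cells, read 4.99, 4.95 and 4.78 against 9.26, 10.14 and 10.51 (at least 16.4-fold, adjusted p = 7.48e-05). Cfl1, which severs actin filaments, and Csrp1, which encodes a LIM-domain protein, were detected on no Neurog1-Ctrl array, at least 7.12-fold and 8.11-fold lower (adjusted p = 7.62e-05 and 3.92e-05). Pdrg1, Cops8 and Cfl1 were among the genes that lay lower on all 6 arrays of the Neurog1-GFP line than on the other 15. The Neurog1-OBX arrays spread widely, from 4.64 to 10.28, 4.74 to 8.96 and 4.55 to 7.66 (means 8.09, 6.38 and 5.62). Pdrg1 was detected on 2 of these 3 arrays and Cops8 and Cfl1 on 1 each. No other probe of these genes passed the filter.

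Since the mouse line differs between the sides, the other sort of each line was read beside them. For 214 genes the 6 arrays of the Neurog1-GFP line (Neurog1-Ctrl and Neurog1-OBX) lay all above (91 genes) or all below (123 genes) the other 15 arrays of the mucosa. Of these, 34 were called higher and 96 lower in the comparison, against 17.0% called of all genes. On each of the 214 the choice itself keeps Neurog1-Ctrl and Sox2GBC from overlapping, so these calls are no separate result. Cfap69, a ciliary gene, showed the widest gap. It read 5.40, 5.82 and 5.49 in Neurog1-Ctrl and 10.57, 10.44 and 9.53 in Sox2GBC (-4.61 ± 0.27, adjusted p = 6.7e-09, at least 18.9-fold, second probe -3.18), and the 3 Neurog1-OBX arrays averaged 5.42 against 9.22 to 12.55 in the other 5 groups. Tesk1, a kinase gene, read 5.61, 5.22 and 5.45 against 10.47, 10.66 and 10.30 (-5.05 ± 0.40, adjusted p = 7.13e-07, at least 23.2-fold), with 6.32 in Neurog1-OBX and 9.94 to 10.48 in the other 5 groups. Obi1, a ubiquitin ligase gene, followed the same pattern at -2.87 ± 0.27 (adjusted p = 2.97e-06), and Tomm22, a part of the mitochondrial import pore, at -3.58 ± 0.47 (adjusted p = 6.27e-05). For Fgfr1op2 the probe used gave -3.64 ± 0.33 (adjusted p = 2.97e-06) and another probe 0.37, so probes of the same gene went opposite ways. Among the higher genes, Olig2, a factor of progenitors and oligodendrocytes, read 7.71, 7.74 and 7.97 against 6.09, 6.31 and 6.16 (1.62 ± 0.30, adjusted p = 0.00107) and averaged 7.87 in Neurog1-OBX and 4.99 to 6.18 elsewhere. Olfr75-ps1 averaged 8.48 and 8.04 in the 2 sorts of the line and 5.06 to 6.68 elsewhere.

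**Figure D5:**
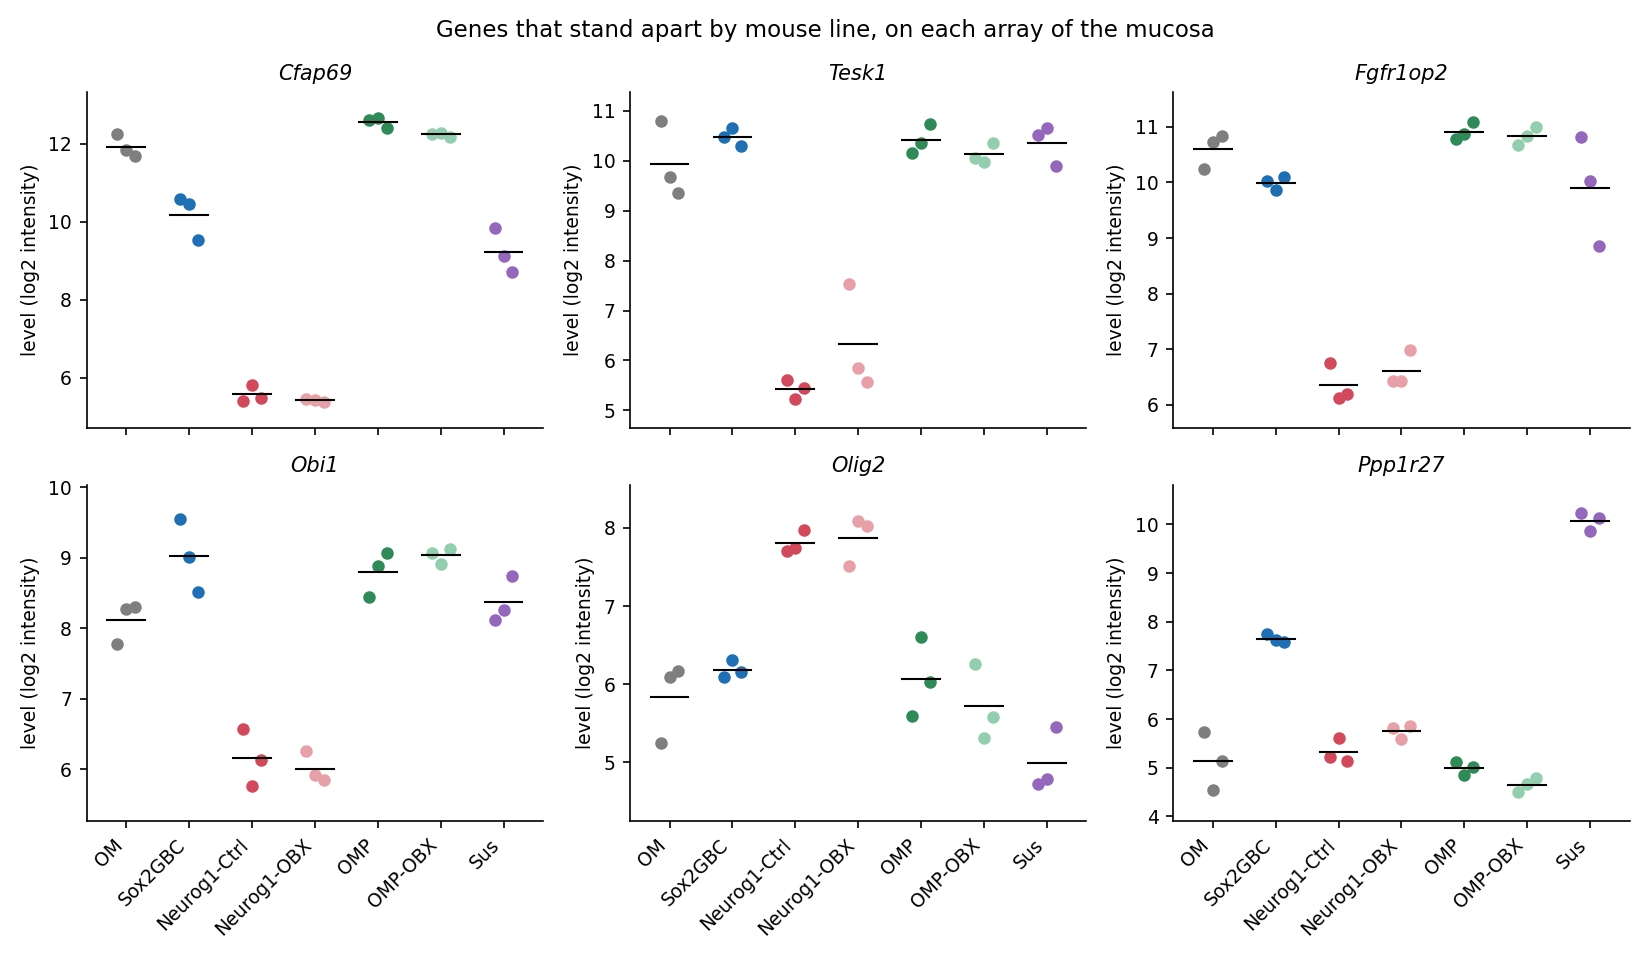
Level (log2 intensity) of 6 genes on each of the 21 arrays of the mucosa, by group, with points for arrays and lines for group means. Cfap69, Tesk1, Fgfr1op2 and Obi1 are low and Olig2 is high on the 6 arrays of the Neurog1-GFP line, and Ppp1r27 is high on the 6 arrays of the Sox2-GFP line.

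Chromosome 13, which carries Neurog1, held 10 of the 91 genes that stood above in the line and 3.30% of all tested genes, and chromosomes 6 and 19 held 12 each of the 123 that stood below, against 4.76% and 3.72% of tested genes. This is a description of where the genes lie. Around the other reporter, 110 genes stood above and 336 below on the 6 arrays of the Sox2-GFP line (Sox2GBC and Sus), a count added after seeing the values. This choice too separates Neurog1-Ctrl from Sox2GBC on each gene, and 232 of all these were called higher and 60 lower in the comparison. Those that stood below include many neuronal, ciliary and receptor genes named above, among them Kirrel3, Efna3, Unc5b, Cplx2, Syt4, Sv2a, Slc17a6, Drd2, Vsnl1, Dnaic1, Ift74, Olfr138 and Nqo1. Ppp1r27 had the widest gap, at 5.22, 5.62 and 5.14 in Neurog1-Ctrl and 7.75, 7.63 and 7.58 in Sox2GBC (-2.33 ± 0.23, adjusted p = 6.16e-06, at least 3.28-fold) and 10.08 in Sus. In neither line can the genes of the stage be told apart from those of the line with these arrays.

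Probes of a gene did not always agree. Among the 775 called genes with another probe above the filter, all other probes had the same sign and at least 0.5 of the size in 365, and 158 had a probe of the opposite sign. Values of other probes are given beside the named genes where they fall short of that mark.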

How the data were processed

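Labelled RNA of sorted cells was hybridised to 1-colour Illumina arrays, per the labels' protocols. The authors deposited, for each sample, a probe intensity and a detection p-value, exported from GenomeStudio per the labels, and a table of processed values, whose further steps are not given in the sources used here. From the intensities of the 21 mucosal arrays, background was corrected by normexp with an offset of 16, followed by quantile normalization and log2. Of 45281 probes 34885 had 1 gene symbol, 18 several and 10378 none, and 18528 stayed after a filter that asked for a detection p below 0.01 on 3 or more arrays. The brightest probe stood for its gene, giving 11870 genes. All 7 mucosal groups entered 1 limma fit (limma 3.58.1, R 4.3.3), with the 2 groups compared as a contrast and Benjamini-Hochberg adjustment at 0.05. On simulated data of 11870 genes, the fit called 2%, 46%, 94% and 100% of genes changed by 0.5, 1, 2 and 3 on the log2 scale, 50 each. That simulation used independent normal noise without array effects and changed few genes, whereas 17.0% were called in the data. Its rates therefore need not hold for this comparison. The number of arrays limits the precision.

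The members and gene lists were chosen with earlier results of these data known. Named genes are those of the sorts, up to 8 called genes and 4 others for each list, up to 12 genes each way by size and 12 by smallest p among called, non-overlapping genes whose other probes gave the same sign and at least 0.5 of the size, and the 6 genes each way that stood furthest apart by line. Neighbours of the reporter genes and genes apart by the Sox2-GFP line were chosen after their values were seen. Replicate numbers did not pair the samples: same-numbered deviations correlated at -0.0910, 0.0318 and -0.105. Alternatives were other background, scaling, filter, probe and block settings, array weights, the log2 of the authors' deposited processed values and leaving out each array.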

Additional observations from a re-analysis of the deposited data

How the results depend on the processing

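The count of called genes moved by over 1.5 times in few settings, and the cause was not tested. It was 2019, with 947 higher and 1072 lower, and 4190 (2114 higher, 2076 lower) with array weights. Scaling by the median of all probes gave 1862 higher and 555 lower, and a fit of the 2 groups alone 1476 higher. Requiring a 2-fold change left 1333 calls, 518 of them higher. Leaving out 1 array gave 1165 to 1680 calls, 464 to 769 higher and 691 to 954 lower. With the replicate number as a block the counts were 2085, 959 and 1126. With the noise class of the array as a block they were 2022, 869 and 1153, and within noise class 4 they were 2612, 1171 and 1441. Sox2, which was not called, changed direction without Sox2GBC replicate 1 (0.17) and without Sox2GBC replicate 2 (0.24), within a range of -0.64 to 0.24 over the single arrays left out. Omp, also not called, changed direction with scaling by the median of all probes (0.0077), with the mean of probes (1.46) and among the single arrays left out (-0.11 to 0.0214). Of 2375 values of the 125 genes named in the text, 2325 kept their direction and side of the threshold, 34 lost the call, 10 gained it and 6 changed sign. Of 1760 counts over gene lists, 359 moved by over 1.5 times. The dim Sox2GBC replicate 3 and genes near background limit what 3 arrays a group can show.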
